A study of Mus musculus with 16 samples.

Results

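The genes described here encode pore-forming subunits of voltage-gated calcium channels: Cacna1a, Cacna1b, Cacna1c, Cacna1d, Cacna1e, Cacna1g, Cacna1h and Cacna1i. Every array probe whose RefSeq transcript belongs to one of these symbols was taken, which gave 13 probes for 8 of the 20145 named genes on the array. The probes of 5 genes were well above background on at least 4 of 16 arrays, and these 5 genes were tested. The other 3 genes are described by their signals without a test, so every count of tested genes below leaves them out.

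The cells were mitral cells, the glutamatergic output neurons of the olfactory bulb, taken from ICR mice at postnatal day 3 (P3) or postnatal day 6 (P6). All mice had been electroporated in utero on embryonic day 12. Control cells carried the plasmid pCAG-EYFP, and Kir2.1 cells carried pCAG-EYFP together with pCAG-Kir2.1. Both plasmids use the ubiquitous CAG promoter, and Kir2.1 is an inward rectifier potassium channel that holds neurons near their resting potential. Thus all 4 groups (P3 control, P3 Kir2.1, P6 control, P6 Kir2.1) expressed EYFP, and the comparisons ask how channel transcripts differed with age and with Kir2.1. Each group held 4 arrays, and each array held cDNA pooled from 10 hand-picked fluorescent cells, each amplified by 30 cycles of PCR and kept if EYFP and Pcdh21 (the gene Cdhr1) were found. The number of animals behind a pool was not stated, so p-values rest on pool-to-pool spread, which can include technical variation. Within a pool, fewer cells with a transcript and less transcript per cell cannot be told apart.

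In a voltage-gated calcium channel, the alpha1 subunit forms the pore, senses voltage and defines the current type, while beta and alpha2delta subunits control trafficking and gating. Cacna1a (P/Q-type) and Cacna1b (N-type) encode the main channels of transmitter release, and Cacna1e encodes the R-type channel. Cacna1c and Cacna1d encode L-type channels, which couple depolarisation to signalling and transcription. Cacna1g, Cacna1h and Cacna1i encode the low-voltage-activated T-type channels, which open close to rest and support rebound and burst firing. Mitral cells release glutamate from dendrites as well as from axons, and calcium entry triggers this release.

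Signals are given as log2 of the processed spot signal relative to a 75th percentile on the same array, and each unit is a doubling. That percentile, where 0 lies, was taken over the 12103 probes well above background on all 16 arrays, not over all probes. Between 34.3% and 41.1% of the probes of an array were well above background, and within groups the median pairwise correlation of pools lay between 0.803 and 0.874. All P3 arrays shared slide 1 and all P6 arrays slide 2, and the effects of age and slide cannot be told apart. On each slide control pools lay in row 1 and Kir2.1 pools in row 2, so treatment and row cannot be told apart. Cdhr1, Tbx21, Eomes and Slc17a7, which mark mitral and tufted cells, were well above background on all 16 arrays, while Lhx5 and Kcna2 of the same 11-gene list were so on none. Tbr1, Slc17a6, Reln, Nrp1 and Ntng1 of that list were so in at least some pools of every group. Because cells were kept only if Cdhr1 was found, its signal says nothing further on identity. Markers of other cells were present too, and some of these lists moved with the groups. Summed linear signals of olfactory sensory neuron markers overlapped between ages in control cells, at 8.56 to 10.4 (P3) and 7.52 to 11.1 (P6). Those of vascular and blood cell markers also overlapped there, at 0.819 to 1.03 and 0.93 to 1.37. The summed linear signal of the 13 tested interneuron markers of 15 was 0.515 to 0.976 in P3 control, 0.729 to 1.04 in P3 Kir2.1, 2.46 to 8.08 in P6 control and 0.813 to 2.87 in P6 Kir2.1. The summed signal of 9 tested mitral and tufted markers was 12.7 to 18.6 in P3 control, 11.6 to 15.8 in P3 Kir2.1, 9.68 to 16.5 in P6 control and 17.9 to 24.6 in P6 Kir2.1. These sums did not overlap between the P6 groups. The mean log2 signal of the same 9 markers did overlap, at -2.07 to -1.11 in P6 control and -1.64 to -0.18 in P6 Kir2.1 pools. Of the interneuron list, Dlx6 and Calb2 were not above background on any P6 control array. The summed signal of 7 tested astrocyte and radial glia markers of 9 was 1.74 to 4.35 in P3 control, 3.53 to 10.1 in P3 Kir2.1, 11.7 to 14.0 in P6 control and 3.97 to 15.4 in P6 Kir2.1. That of 6 tested ensheathing cell markers of 7 was 1.57 to 8.48, 3.54 to 9.60, 10.2 to 14.9 and 2.92 to 30.0 in the same order of groups. The part of these cells in the channel values was not tested.

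**Figure D1:**
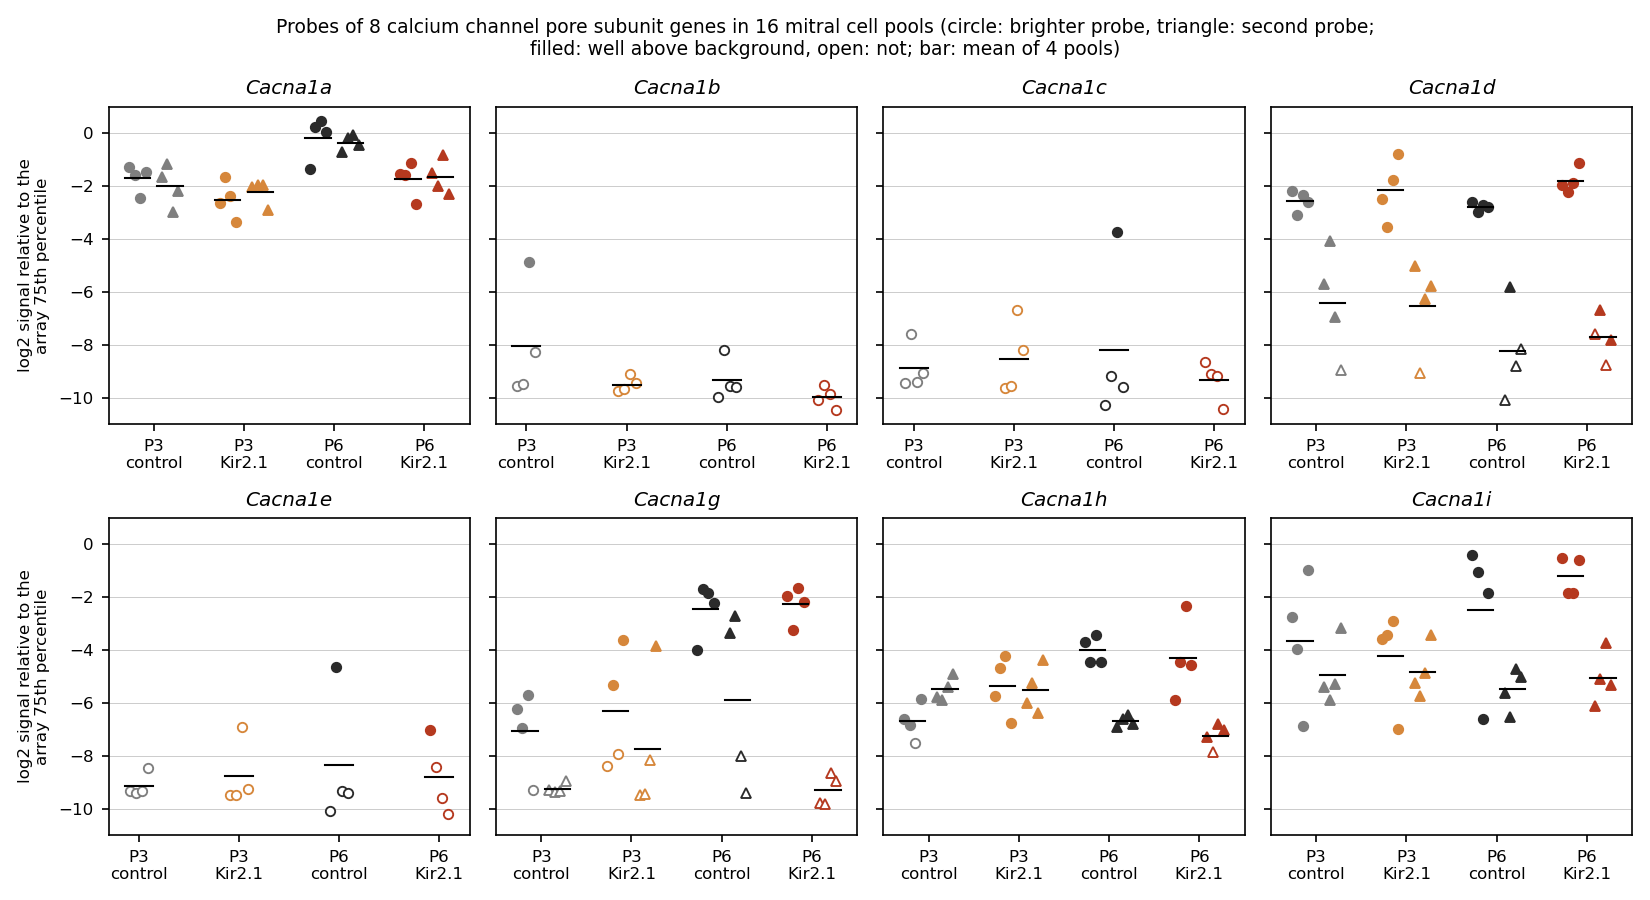
Log2 signal (vertical axis) of all 13 probes of the 8 genes in each of the 16 pools, by group (horizontal axis), with bars at the mean of 4 pools. Signal is relative to the array's 75th percentile over probes well above background on all arrays. The brighter Cacna1g probe lies between -9.31 and -3.62 in the 8 P3 pools and between -4.02 and -1.66 in the 8 P6 pools, while Cacna1b, Cacna1c and Cacna1e are mostly open symbols near background.

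The T-type gene Cacna1g was the only pore subunit past the threshold in any of the 6 contrasts. It rose from P3 to P6 in control cells. Its tested probe (A_55_P2132756) read -6.25, -6.96, -5.72 and -9.31 in P3 control pools 1 to 4. In P6 control pools 1 to 4 it read -4.02, -1.69, -1.84 and -2.22. Every P6 control pool lay above every P3 control pool, and P3 control pool 4 was not well above background, so the level was measured in 3 of 4 pools there. The means were -7.06 ± 1.58 at P3 and -2.44 ± 1.07 at P6 (SD, n = 4 pools). The difference of 4.61 on the log2 scale (SE 1.02) is 24.5-fold, with a limma adjusted p of 0.0313 over 21070 features. It was 3.87 without P3 control pool 4 and 2.33 (adjusted p = 0.0142) with normexp background correction. In this contrast 2.64% of the 12035 named genes passed the threshold, 1.32% of them as higher, and 0.573% had an upward difference at least as large as that of Cacna1g. The call rests on most of the pools: the adjusted p was 0.0584, 0.0688 and 0.0858 without P3 control pools 1, 2 and 4, and 0.0612, 0.0623 and 0.0741 without P6 control pools 2, 3 and 4. It was also 0.0582 without a filter on dim probes and 0.0629 with control arrays alone, while the difference stayed between 2.33 and 5.14 under every alternative setting and omission run.

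In Kir2.1 cells Cacna1g was also higher at P6 than at P3 without passing the threshold. P3 Kir2.1 pools 1 to 4 read -8.38, -5.34, -7.92 and -3.62, with pools 2 and 4 well above background and pools 1 and 3 not. P6 Kir2.1 pools 1 to 4 read -1.96, -3.26, -1.66 and -2.19. The 2 groups did not overlap, the nearest pools being P3 pool 4 and P6 pool 2. The difference was 4.05 (SE 1.02, limma adjusted p = 0.0859), and 2.12 with normexp background correction, where it passed the threshold (adjusted p = 0.0439). This was in a contrast where 0.956% of named genes passed the threshold and 8.35% did not overlap between ages. The age differences of control and Kir2.1 cells were close, and their own difference was -0.57 with a 95% confidence interval from -3.65 to 2.52 (limma adjusted p = 0.925). That interval is too wide to tell whether the rise was the same in both. Between treatments, Cacna1g differed by 0.74 (SE 1.02, adjusted p = 0.945) at P3 and by 0.18 (SE 1.02, adjusted p = 0.954) at P6, and the groups overlapped at both ages.

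The 4 P6 Kir2.1 pools had summed interneuron marker signals of 1.48, 2.87, 1.31 and 0.813, against 8.08, 4.43, 2.46 and 2.56 in the P6 control pools. The 2 groups overlapped in Cacna1g and in these marker sums. They did not overlap in the mean log2 signal of the 13 markers, at -3.96 to -1.87 in P6 control and -6.68 to -4.16 in P6 Kir2.1 pools. From P3 to P6 in control cells, 12 of the 13 interneuron markers had a positive difference, with a median of 2.79. Of these markers 3 were called higher there, beside 1.32% of named genes. In Kir2.1 cells 7 of the 13 had a positive age difference, with a median of 0.13, and 0 were called. Glial and ensheathing cell markers also moved with age in control cells, by the ranges given above: neither the astrocyte nor the ensheathing cell sums overlapped between P3 and P6 control pools. These lists share Fabp7 and S100b. The mean log2 signal of the ensheathing markers did overlap, at -5.27 to -2.54 in P3 control and -3.31 to -1.17 in P6 control pools. Sums of 5 tested microglia markers of 8 did not overlap, at 0.283 to 0.394 in P3 control and 0.424 to 1.15 in P6 control pools. The mean log2 signal of these microglia markers did overlap, at -6.446 to -5.351 and -5.672 to -3.755. Sums of 8 oligodendrocyte lineage markers overlapped, at 0.793 to 4.17 in P3 control and 1.60 to 7.52 in P6 control pools. The part of any of these markers in the age difference of Cacna1g was not tested.

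The second Cacna1g probe (A_51_P466910) was well above background in only 3 of 16 pools and was not tested. Those pools were P3 Kir2.1 pool 4, at -3.87, and P6 control pools 1 and 2, at -3.37 and -2.72. In the other 13 pools it read between -9.82 and -8.02. The age difference of the tested probe was thus not repeated in the P6 Kir2.1 pools by this probe, where it was not well above background in any pool. Across the 16 arrays the 2 probes had a Pearson r of 0.273.

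**Figure D2:**
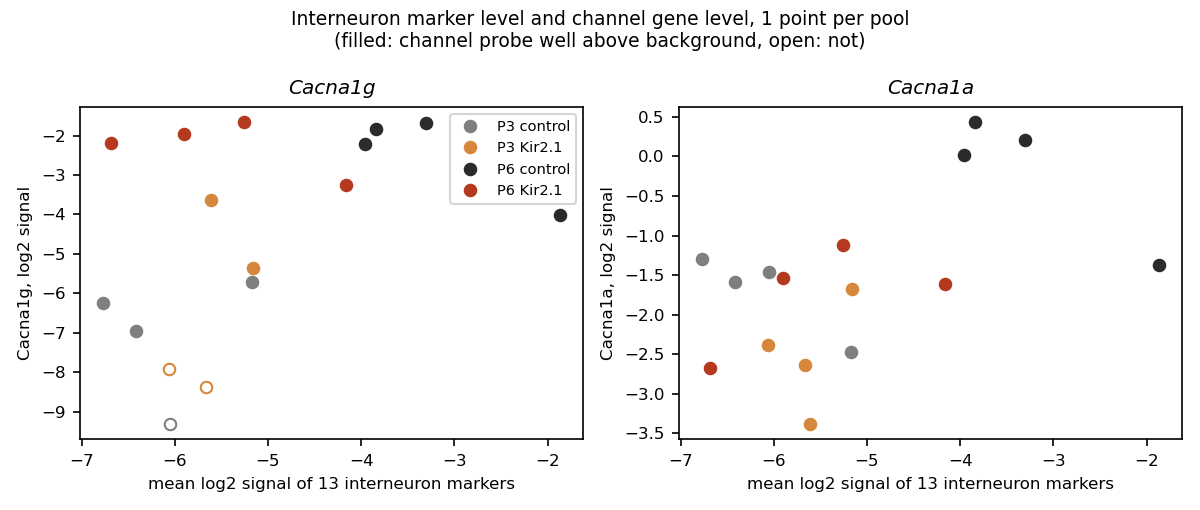
Log2 signal of the tested Cacna1g probe (left) and the tested Cacna1a probe (right) against the mean log2 signal of 13 interneuron markers (horizontal axis), with 1 point per pool coloured by group and open points for a channel probe not well above background. P6 Kir2.1 pools sit as high as P6 control pools for Cacna1g and lower than 3 of the 4 P6 control pools for Cacna1a.

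Cacna1h, another T-type gene, has probes that went in opposite directions with age. Its tested probe (A_55_P1986596) read -6.60, -6.83, -7.53 and -5.85 in P3 control pools 1 to 4, with pool 3 not well above background. P6 control pools 1 to 4 read -3.72, -4.46, -3.42 and -4.46, so all 4 lay above every P3 control pool. The difference was 2.69 (SE 0.70, 6.44-fold) with a limma adjusted p of 0.0606. In this contrast 2 of 5 tested genes, Cacna1g and Cacna1h, had groups that did not overlap, against 12.6% of all named genes. The adjusted p passed the threshold at 0.0472 with quantile normalization, 0.0468 with control arrays alone, and 0.0457 and 0.0275 without P6 Kir2.1 pools 1 and 3. With normexp the difference was 0.93 (adjusted p = 0.218), and without a filter on dim probes the adjusted p was 0.112.

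The second Cacna1h probe (A_55_P1986591), which the array design assigns to a different transcript of the gene, read lower at P6. It read -5.79, -5.88, -5.39 and -4.93 in P3 control pools 1 to 4 and -6.91, -6.62, -6.45 and -6.79 in P6 control pools 1 to 4. Here every P6 pool lay below every P3 pool. The difference was -1.19 (SE 0.40, adjusted p = 0.138 with each probe tested on its own). In Kir2.1 cells this probe read -6.02, -5.26, -6.39 and -4.39 at P3 and -7.29, -7.84, -6.82 and -7.03 at P6, again without overlap. That difference was -1.73 (SE 0.40, adjusted p = 0.0676), and 0.0497 without P3 Kir2.1 pool 3. Over the 16 arrays the 2 probes had a Pearson r of -0.577, and of -0.116 once group means were removed. Their mean gave an age difference of 0.75 in control cells (adjusted p = 0.359), so Cacna1h has no single direction with age in these arrays.

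With Kir2.1, the tested Cacna1h probe showed differences that did not pass the threshold. P3 Kir2.1 pools 1 to 4 read -5.76, -4.67, -4.23 and -6.77, of which 3 lay above every P3 control pool. The difference was 1.35 (SE 0.70, limma adjusted p = 0.812), and 6.31% of named genes had an upward difference at least as large. P6 Kir2.1 pools 1 to 4 read -5.91, -4.45, -2.35 and -4.58, on both sides of the P6 control pools, with a difference of -0.31 (SE 0.70, adjusted p = 0.866). The age difference in Kir2.1 cells was 1.03 (SE 0.70, adjusted p = 0.532), and its difference from that in control cells was -1.65 (SE 0.99, adjusted p = 0.594).

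**Figure D3:**
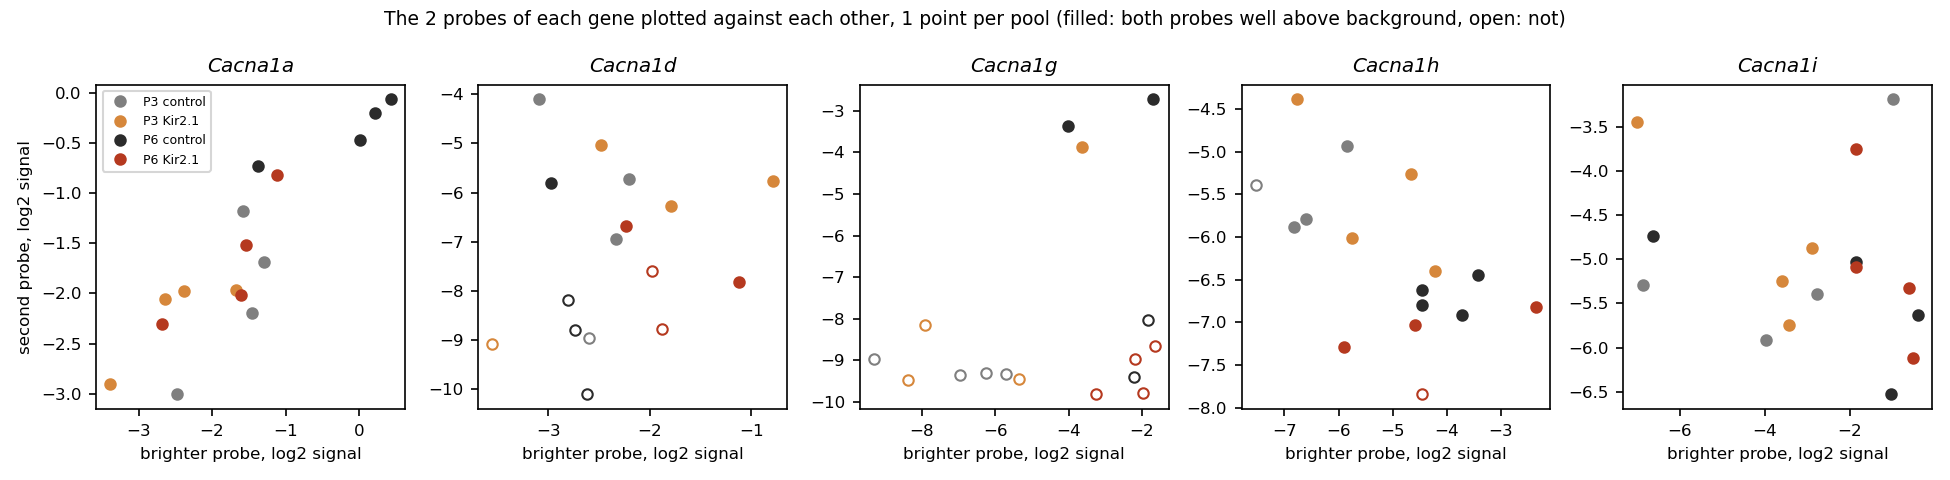
Log2 signal of the second probe (vertical axis) against the brighter probe (horizontal axis) of the 5 genes with 2 probes, 1 point per pool, open where either probe was not well above background. The probes of Cacna1a rise together (Pearson r 0.897), whereas those of Cacna1h run in opposite directions (r -0.577) and those of Cacna1d, Cacna1g and Cacna1i show r between -0.249 and 0.273.

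Cacna1i, the third T-type gene, varied most between pools. Its tested probe (A_55_P2079076) was well above background on all 16 arrays and read -2.78, -3.98, -6.86 and -0.99 in P3 control pools 1 to 4. P3 Kir2.1 pools read -3.60, -3.43, -2.89 and -6.99. P6 control pools read -0.41, -1.05, -6.62 and -1.86. P6 Kir2.1 pools read -0.52, -1.85, -1.85 and -0.62. One pool in each group but P6 Kir2.1 lay between -6.99 and -6.62, and all other pools lay at -3.98 or above, so 3 of 16 pools stood apart. The SD within groups, pooled over the 4 groups, was 2.13, larger than in 82.2% of the named genes, whose median was 1.11.

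All P6 Kir2.1 pools of Cacna1i lay above all P3 Kir2.1 pools, at -1.21 ± 0.74 against -4.23 ± 1.87 (SD, n = 4 pools). The difference was 3.02 (SE 1.42, limma adjusted p = 0.337), and its 95% confidence interval ran from -0.030 to 6.07. In control cells the age groups overlapped and the difference was 1.17 (SE 1.42, adjusted p = 0.721). That value was 2.55 without P6 control pool 3 and 0.10 without P3 control pool 3. Kir2.1 and control cells differed by -0.58 (adjusted p = 0.977) at P3 and 1.27 (adjusted p = 0.686) at P6, and both signs turned when single pools were left out. The second Cacna1i probe (A_66_P112371) stayed between -6.53 and -3.19 in all 16 pools, with age differences of -0.54 (adjusted p = 0.738) in control cells and -0.24 (adjusted p = 0.908) in Kir2.1 cells.

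Cacna1a, the P/Q-type channel gene, was highest in P6 control cells by both of its probes, without passing the threshold in any contrast. The tested probe (A_55_P2142393) read -1.29, -1.58, -2.48 and -1.46 in P3 control pools 1 to 4 and -1.37, 0.21, 0.43 and 0.017 in P6 control pools 1 to 4. P3 Kir2.1 pools read -2.64, -1.68, -2.38 and -3.38, and P6 Kir2.1 pools read -1.54, -1.61, -1.12 and -2.68. P6 control pools 2 to 4 lay above the other 13 pools, and P6 control pool 1 lay among them. The group means ran from -2.52 ± 0.70 in P3 Kir2.1 through -1.74 ± 0.66 in P6 Kir2.1 and -1.70 ± 0.53 in P3 control to -0.18 ± 0.81 in P6 control (SD, n = 4 pools). The middle 2 groups of that order differed by far less than their spread.

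At P6, Cacna1a was lower in Kir2.1 than in control cells by 1.56 log2 units on average (-1.56, SE 0.48, 2.95-fold, limma adjusted p = 0.112, unadjusted p = 0.00605). In this contrast 1.80% of named genes passed the threshold and 11.7% had a downward difference at least as large. At P3 the difference was -0.82 (SE 0.48, adjusted p = 0.834), and the mean over both ages was -1.19 (SE 0.34, adjusted p = 0.131). The share of named genes past the threshold was 0.00831% at P3 and 0.706% for the mean over both ages. From P3 to P6 the difference was 1.53 (SE 0.48, adjusted p = 0.111) in control cells and 0.78 (SE 0.48, adjusted p = 0.481) in Kir2.1 cells. Their difference was -0.74 (SE 0.68, adjusted p = 0.749). Without P6 control pool 1 the age difference in control cells was 1.92, with an adjusted p of 0.0482.

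The second Cacna1a probe (A_55_P2120308) gave a like picture with less spread at P6. It read -1.68, -1.17, -3.01 and -2.19 in P3 control pools 1 to 4 and -0.73, -0.20, -0.065 and -0.47 in P6 control pools 1 to 4. All P6 control pools lay above all P3 control pools and above all P6 Kir2.1 pools, which read -1.52, -2.01, -0.82 and -2.30. With each probe tested on its own, 4 of 9 member probes did not overlap between ages in control cells, against 12.3% of all named probes. The age difference was 1.65 (SE 0.42, limma adjusted p = 0.0558), and the Kir2.1 difference at P6 was -1.30 (SE 0.42, adjusted p = 0.127). The former was 0.0450 and 0.0434 without P3 control pool 2 and P6 Kir2.1 pool 3. Beside this contrast, summed interneuron marker signals were 2.46 to 8.08 in P6 control pools and 0.813 to 2.87 in P6 Kir2.1 pools. The mitral and tufted marker sums were 9.68 to 16.5 and 17.9 to 24.6 in the same groups. The part of these markers in the Cacna1a difference was not tested.

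Cacna1d, an L-type gene, had a tested probe that varied little in control cells. Its tested probe (A_51_P251209) read -2.20, -3.09, -2.33 and -2.60 in P3 control pools 1 to 4 and -2.62, -2.98, -2.74 and -2.80 in P6 control pools 1 to 4. The P6 control pools lay within the P3 range, with a difference of -0.23 (SE 0.47, limma adjusted p = 0.847, 95% confidence interval -1.23 to 0.78). P6 Kir2.1 pools read -1.98, -2.23, -1.88 and -1.12, each above every P6 control pool. That difference was 0.98 (SE 0.47, adjusted p = 0.296), the one case of 5 tested genes without overlap in this contrast, where 8.08% of named genes did not overlap. P3 Kir2.1 pools spread from -3.55 to -0.79 around the P3 control pools, with a difference of 0.40 (SE 0.47, adjusted p = 0.933). Over both ages Cacna1d was higher in Kir2.1 cells by 0.69 (SE 0.33, adjusted p = 0.384). Its second probe (A_55_P2125376) was well above background in 9 of 16 pools and gave 0.51 at P6 (SE 1.13, adjusted p = 0.863) and -0.11 at P3 (adjusted p = 0.996). With age this probe differed by -1.80 (SE 1.13, adjusted p = 0.442) in control cells and by -1.18 (SE 1.13, adjusted p = 0.685) in Kir2.1 cells. The mean of both Cacna1d probes differed with age by -1.01 in control and -0.41 in Kir2.1 cells.

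Cacna1b, Cacna1c and Cacna1e, which encode N-type, L-type and R-type channels, were near background in nearly all pools and were not tested. Cacna1b was well above background in P3 control pool 3 alone, at -4.88. Cacna1c was so in P6 control pool 3 alone, at -3.73. Cacna1e was so in P6 control pool 2, at -4.65, and in P6 Kir2.1 pool 1, at -7.02. Their remaining signals lay between -10.5 and -6.69. Each of these genes has 1 probe on the array, and a probe not above background gives only an upper bound on the transcript's level.

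**Figure D4:**
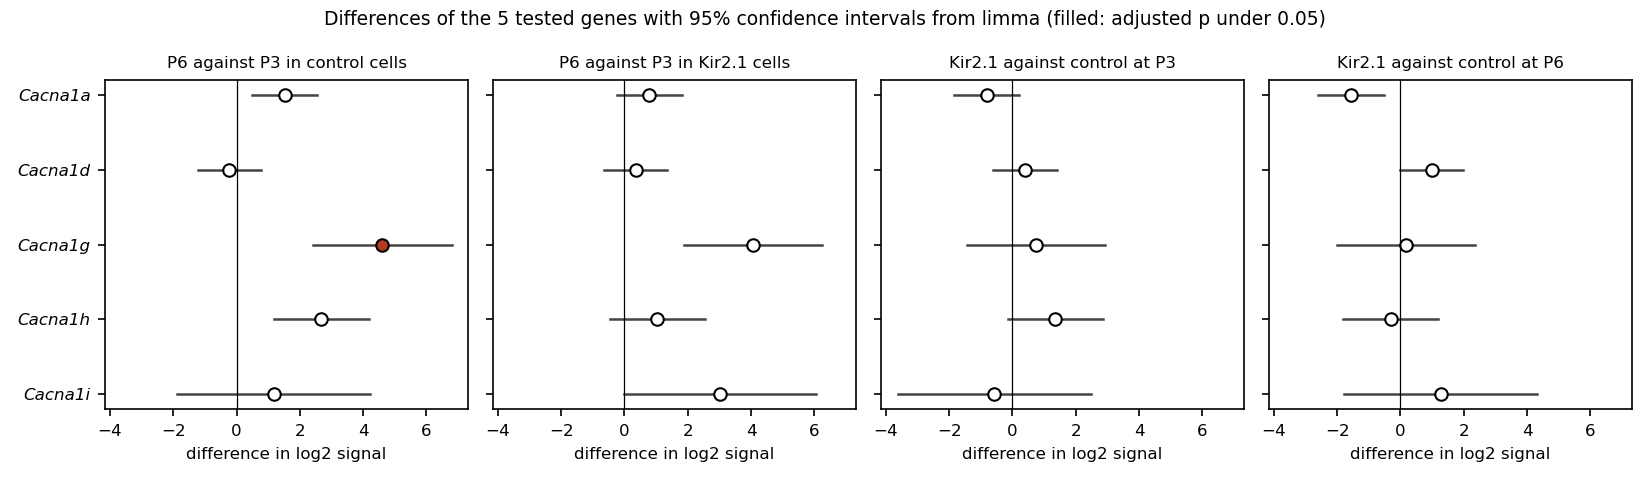
Differences in log2 signal (horizontal axis) of the 5 tested genes in 4 contrasts, with 95% confidence intervals from limma and a filled point where the adjusted p was under 0.05. Cacna1g from P3 to P6 in control cells, at 4.61, is the only filled point, and Cacna1a at P6 lies at -1.56.

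Taking the 5 tested genes as a group, 4 had a positive age difference in control cells, with a median of 1.53, and 5 in Kir2.1 cells, with a median of 1.03. Over all 12035 named genes 46.7% and 46.3% were positive, with medians of -0.081 and -0.079. The probes of Cacna1h and Cacna1i disagree in sign in both treatments and those of Cacna1d in Kir2.1 cells, where the second probe was negative for all 3 genes, and the 3 untested genes are left out. For Kir2.1 against control, limma called 0 of 5 genes at P3, at P6, over both ages and in the test of whether the Kir2.1 difference changed with age, where 0.0748% of named genes passed. At an unadjusted p under 0.05 the counts were 0, 1, 1 and 0, and the gene was Cacna1a at P6 and over both ages. The medians were 0.40 at P3 and 0.18 at P6, against -0.096 and -0.090 over all named genes. No group pair of the 5 tested probes was without overlap at P3, where 5.89% of named genes were.

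The other subunits of these channels gave few calls. From P3 to P6 in control cells the median difference was 0.24 for beta subunits, 0.68 for alpha2delta subunits, -0.15 for gamma and TARP proteins, 0.40 for regulators and anchors and 0.17 for calcium stores, against -0.081 over all named genes. Of the 2 remaining pore genes on the list, Cacna1f was above background on 1 array and not tested, and Cacna1s had its largest difference, 1.32 (SE 0.72, limma adjusted p = 0.359), from P3 to P6 in control cells. Of 3 beta subunits tested of 4, Cacnb3 fell with age in control cells, while Cacnb1 and Cacnb4 did not pass. Cacnb3, a beta subunit that joins neuronal high-voltage-activated channels, read 1.29, 1.48, 1.43 and 1.31 in P3 control pools and 0.68, 0.080, -0.30 and 0.56 in P6 control pools. The groups did not overlap, and the difference was -1.13 (SE 0.26, limma adjusted p = 0.0381). It was 0.0502 to 0.0968 without P3 control pool 1, 2, 3 or 4 or P6 control pool 2, 3 or 4, and up to 0.126 under 5 of 11 other settings. In Kir2.1 cells its age difference was -0.085 (SE 0.26), and the 2 age differences did not differ past the threshold (adjusted p = 0.312).

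The alpha2delta list had 3 tested genes of 4 and no call in any contrast. The lowest p belonged to Cacna2d1, a gabapentin-binding subunit. It was lower in Kir2.1 cells by 1.34 over both ages (difference -1.34, SE 0.43, limma adjusted p = 0.182). Its P3 control pools read -1.76, -2.72, -1.93 and -2.55, all above the P3 Kir2.1 pools at -4.09, -3.27, -3.96 and -4.37. At P6 the treatments overlapped. With each probe tested on its own, the other Cacna2d1 probe gave -1.35 over both ages (limma adjusted p = 0.598). It gave -0.79 at P3 (adjusted p = 0.966).

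Of 6 tested gamma subunits and AMPA receptor regulators (TARP proteins) of 8, Cacng4 and Cacng5 were called. Cacng5 was called with age in control and in Kir2.1 cells, where 2.64% and 0.956% of named genes passed. Cacng4 was called for Kir2.1 over both ages, where 0.706% passed. Cacng5 rose with age in both treatments. It read -2.85, -0.85, -1.75 and -0.78 in P3 control pools and 1.42, 1.21, 0.54 and 0.85 in P6 control pools, and the difference was 2.56 (SE 0.55, limma adjusted p = 0.0292). In Kir2.1 cells it was 3.03 (SE 0.55, adjusted p = 0.0271), and neither treatment's age groups overlapped. The control call was lost, at 0.0536 to 0.0830, without P3 control pool 1 or 3 or P6 control pool 1, 2 or 4, and the Kir2.1 call, at 0.0545 to 0.0718, without P3 Kir2.1 pool 1 or 4 or P6 Kir2.1 pool 1, 2 or 4. Without a filter on dim probes the Cacng5 control call had an adjusted p of 0.0536, and with the arrays of that treatment alone the adjusted p was 0.0681 in control and 0.130 in Kir2.1 cells. Cacng4 was higher in Kir2.1 cells over both ages by 3.18 (SE 0.58, adjusted p = 0.0280), and by 0.92 (adjusted p = 0.0543) with normexp background correction. Its Kir2.1 pools read -2.11, -3.28, -5.28 and -3.64 at P3 and -5.38, -4.51, -5.69 and -5.20 at P6. Its control pools read between -9.50 and -5.59, with 3 of 4 above background at P3 and 1 of 4 at P6. That call was lost, at 0.0503 to 0.0611, without P3 control pool 2 or 4, P3 Kir2.1 pool 1, 2 or 4, P6 control pool 4 or P6 Kir2.1 pool 2 or 4.

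Among 17 tested regulators and anchors of 21, 3 rose with age in control cells and 0 fell, beside the 1.32% of named genes called higher. Other proteins of the release machinery on this list did not pass, among them Unc13a at -1.17, Rims1 at -0.12 and Stx1a at 0.31. Rims2, an active zone scaffold that tethers the channels, rose from -4.04 ± 0.99 to -0.87 ± 0.25 (3.16, SE 0.60, limma adjusted p = 0.0153). Snap25, a membrane fusion protein, rose by 1.24 (SE 0.19, adjusted p = 0.00431), and Syt1, a calcium sensor of vesicle release, by 1.14 (SE 0.22, adjusted p = 0.0174). With control arrays alone the adjusted p was 0.0601 for Snap25 and 0.0982 for Syt1. None of these 3 passed in Kir2.1 cells, where the differences were -0.13, 0.018 and 0.34, and no gene of the list passed the interaction of age with Kir2.1 (lowest adjusted p 0.0975). The 13 tested interneuron markers had a median age difference of 2.79 in control and 0.13 in Kir2.1 cells. The part of these markers in the differences of Rims2, Snap25 and Syt1 was not tested. Syt1 lost its call without P3 control pool 1 or 3 or P6 control pool 4, at 0.0528 to 0.0613. At P6, Rims2 was lower in Kir2.1 cells by 2.65 (difference -2.65, adjusted p = 0.0432), a call that was lost when any of 12 of the 16 pools was left out, at up to 0.0960. It was also lost without a filter on dim probes (0.0734), with array weights (0.117) and with P6 arrays alone (0.206). Erc2, another active zone scaffold, rose with age in Kir2.1 cells by 2.12 (SE 0.29, adjusted p = 0.00796), whereas its other probe gave -0.54 (adjusted p = 0.396). The Erc2 call was lost with the mean of both probes (0.123) and with Kir2.1 arrays alone (0.0629). Of all named genes, 1.80% passed for Kir2.1 against control at P6 and 0.956% from P3 to P6 in Kir2.1 cells.

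Among 10 tested genes of calcium stores, of 11 on the list, Stim2 was called, in a contrast where 0.956% of named genes passed. This sensor of endoplasmic reticulum calcium fell from P3 to P6 in Kir2.1 cells, where it was above background in 3 of 4 P3 pools and in 0 of 4 P6 pools. The probe was above background on 4 arrays in all, 3 of them P3 Kir2.1 pools, so it met the filter mainly through that group. The measured difference was -3.07 (limma adjusted p = 0.0270). With the lowest signal well above background on each array as the P6 level, the measured P3 mean was 2.82-fold higher in this scaling. That value is not a strict minimum, because the P3 mean includes a pool not above background. The call was lost, at 0.0523 to 0.0732, without P3 Kir2.1 pool 1 or 4 or P6 Kir2.1 pool 1, 2 or 3. With normexp background correction the difference was only -0.63 (adjusted p = 0.257). The adjusted p was 0.0860 with quantile normalization and 0.0610 with Kir2.1 arrays alone.

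**Figure D5:**
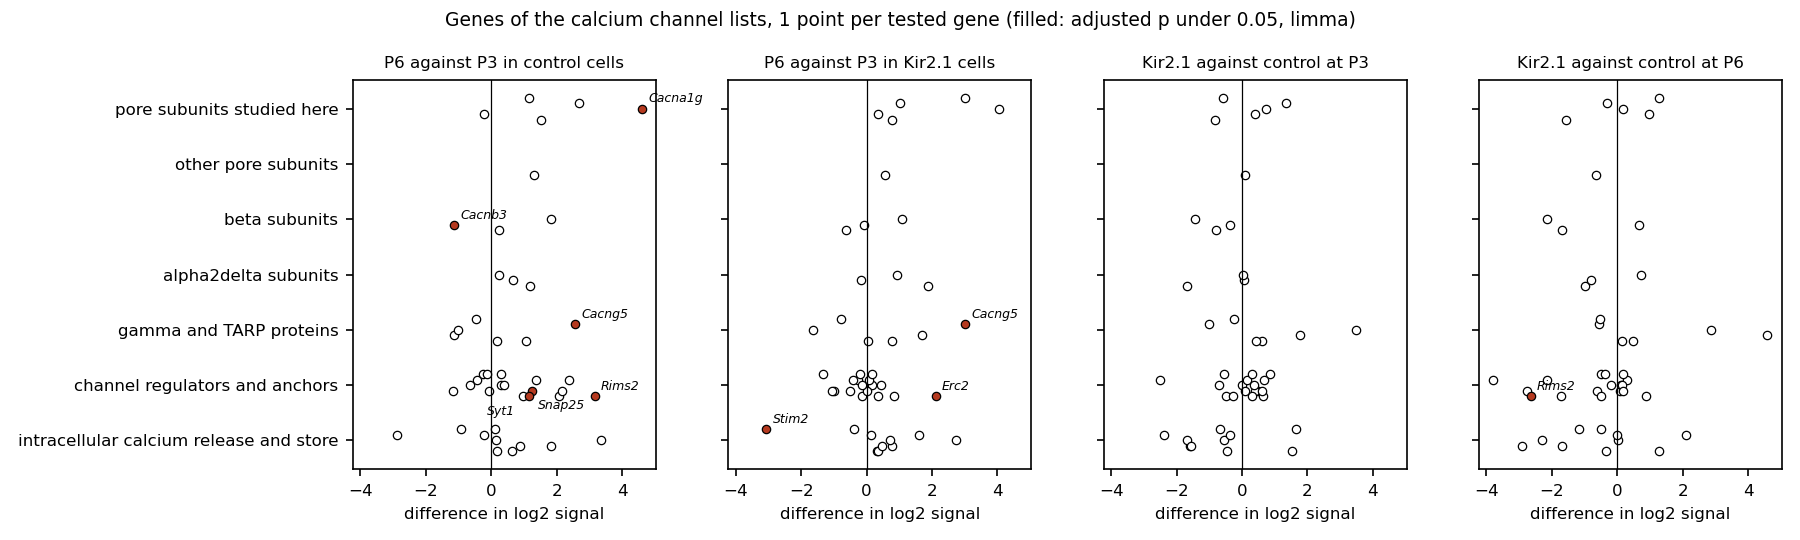
Differences in log2 signal (horizontal axis) of the tested genes of 7 lists in 4 contrasts, 1 point per gene, filled and named where the limma adjusted p was under 0.05. Most filled points stand in the contrast of P6 with P3 in control cells: Cacna1g, Cacnb3, Cacng5, Rims2, Snap25 and Syt1.

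For each tested pore gene, the named genes with the most similar pattern were found from the deviations of the 16 arrays from their group means, among 10409 genes above background on at least 8 arrays. Cacna1a was most like Efr3b (Pearson r 0.799), Paox (0.792) and Scarb2 (0.788). Cacna1d was most like Usp21 (0.851), Zbtb4 (0.825) and Ythdf1 (0.820). Cacna1g was most like Nfkbil1 (0.837), Crtac1 (0.816) and Pip4k2b (0.794). Cacna1h was most like Fam222a (0.824), Ankhd1 (0.810) and Plagl1 (0.807), and Cacna1i most like Dis3l2 (0.893), Rock2 (0.860) and Arl8a (0.843). These are the highest of many coefficients over 16 arrays that share slides and pools, and are a description only.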

How the data were processed

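Per the file headers, 16 one-colour (Cy3) Agilent arrays were read with Agilent Feature Extraction 10.7.3.1, and the authors deposited background-subtracted intensity on a linear scale. The deposited value table holds that intensity divided by each array's 75th percentile, linear and uncentred, with medians per array between 0.0395 and 0.13. Control spots and outliers were left out and spots of a probe averaged. Symbols came from RefSeq accessions (26582 of 28116 probes matched). Log2 intensity was scaled by the 75th percentile over 12103 probes well above background on all arrays. Probes well above background on at least 4 arrays were kept, and the brightest stood for its gene (21070 features). All arrays were fitted with limma 3.58.1 (R 4.3.3), and adjusted p is Benjamini-Hochberg over all features with a threshold of 0.05. The fit was tested on simulated data. No column of mean spot signal was available, so normexp (offset 50) took the median spot signal with the local background median. The highest correlation of any pair of arrays was 0.881, and none was counted as a duplicate. The number of arrays limits the precision. Members, lists and tests were chosen with earlier results of these data known. All members and their probes are named; of other lists, genes past the threshold or, with none, those of lowest p. The closing section gives the effect of other settings.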

Additional observations from a re-analysis of the deposited data

Results flagged for a closer look

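Among 52 sets of 4 pools (13 probes in 4 groups), 6 had a pool that stood far from the other 3 by Dixon's gap criterion at the 95% level. Chance gives about 1 in 20 such sets. The second Cacna1a probe read -2.91 in P3 Kir2.1 pool 4, against -2.05 to -1.97 in the others, and the tested Cacna1a probe was lowest in the same pool. Cacna1c read -3.73 in P6 control pool 3, its only pool above background. Cacna1e read -4.65 in P6 control pool 2, where it was above background. It read -6.91 in P3 Kir2.1 pool 3 and -8.46 in P3 control pool 4, and neither signal was well above background. The second Cacna1g probe read -8.97 in P3 control pool 4, also not above background. Whether the age difference changed with Kir2.1 was tested for 9 probes and passed the threshold for 0 of them (limma, each probe on its own).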

How the results depend on the processing

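The count of pore genes past the threshold from P3 to P6 in control cells, 1 in the fit reported, was 2 with quantile normalization, 0 without a filter and 0 with the replicate block. With control arrays alone it was 1, but the gene was Cacna1h. Leaving out each pool in turn gave 0 to 2. In Kir2.1 cells the count was 1 (Cacna1g) with normexp and 0 otherwise. The other 4 counts stayed at 0. Same-numbered pools of different groups did not deviate together (mean r -0.00416 to 0.00491), so the numbers do not pair them. With the replicate block the calls of Cacna1g, Cacnb3, Cacng4, Cacng5 (both), Rims2 at P6 and Syt1 were lost, at adjusted p of 0.0520 to 0.0699. With the mean of a gene's probes the age difference in Kir2.1 cells turned to -0.41 for Cacna1d and -0.35 for Cacna1h. Signs turned when single pools were left out, none past the threshold. For Kir2.1 at P3 the ranges were -0.053 to 0.87 for Cacna1d, -0.16 to 1.43 for Cacna1g, -1.65 to 0.34 for Cacna1i and -0.54 to 0.068 for the second Cacna1a probe. At P6 they were -0.35 to 0.51 for Cacna1g, -0.96 to 0.22 for Cacna1h and -0.11 to 1.96 for Cacna1i, and over both ages -0.34 to 0.81 for Cacna1i. For age they were -0.11 to 0.81 for Cacna1d in Kir2.1 cells, and for the second Cacna1i probe -0.86 to 0.048 in control and -0.68 to 0.22 in Kir2.1 cells. For the interaction it was -1.25 to 0.33 for Cacna1g. The cause was not tested. The count of all named genes past the threshold was 1, 217, 85, 318, 115 and 9 in the 6 contrasts and ranged over 0 to 8, 10 to 433, 39 to 176, 105 to 510, 17 to 160 and 5 to 58 across settings. The split at P6 moved from 114 higher and 103 lower to 159 and 63 with scaling over all probes and to 141 and 292 with normexp, and the median of all genes there from -0.090 to 0.12 and -0.20. Dim probes limit Cacna1b, Cacna1c, Cacna1e and Cacna1g at P3.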
